A study of Mus musculus with 36 samples.

Results

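At 8 pm, heart tissue from mice without Klf15 was compared with heart tissue from control mice, across all genes, in 6 of the 36 libraries of a study of daily gene expression. The 3 libraries labelled cK15 (replicates 1, 3 and 4) came from mice of genotype KLF15 KO. The 3 control libraries (replicates 2, 3 and 4) came from mice with the α-MHC cre transgene, which drives Cre recombinase in heart muscle cells. Both genotypes were male C57BL/6J mice of 11 to 12 weeks, kept under 12 h of light and 12 h of darkness, and total RNA of the heart apex was sequenced after removal of ribosomal RNA. The other 30 libraries cover both genotypes at 5 other times, 4 h apart, with 3 libraries each. How Klf15 was deleted, in which cells, and whether cK15 mice also carry the transgene were not given in the sources used here. The labels do not state that each library is a separate animal. P-values therefore measure only how far these libraries spread, and part of that spread may be technical. The tissue is bulk: fewer cells of a type and less RNA per cell cannot be told apart. When the lights went on was likewise not stated.

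Klf15 (Kruppel-like factor 15) is a zinc-finger transcription factor of heart, muscle, liver and kidney that binds GC-rich and CACCC-type DNA elements. In mice it is known for driving the breakdown of amino acids, above all the branched-chain ones, for favouring fatty acid use, for controlling the potassium channel subunit Kcnip2 in the heart, and for restraining cardiac growth and fetal heart genes. Its own level follows the circadian clock.

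Values are FPKM, fragments scaled to gene length and library total. Levels are given for cK15 replicates 1, 3 and 4 and then for control replicates 2, 3 and 4. The 6 libraries had 10353 to 10679 genes at 1 FPKM or more. Replicate 4 of both genotypes stood apart: the 10 most abundant genes took 16.9% and 17.7% of its summed FPKM, against at least 22.6% in the other 4, and Myl2, the ventricular myosin light chain, was at 29700 and 33079 FPKM, against at least 52006. Across the study 12 libraries, 1 of every group, stood apart in this way. Calls that need these libraries are named beside each result, by refitting the 24 others. Low values in those others fall in steps of whole fragments, from which cK15 replicates 1 and 3 were 1.03 and 0.881 times as deep as control replicate 2, and control replicate 3 was 1.11 times as deep. Absolute depth is unknown, so intervals and floors for counting error could not be given, and a gene without reads is only said to be listed at 0. Among defining markers of cardiomyocytes the summed level was 23600 to 39840 FPKM in cK15 and 23690 to 37410 in control, as the tissue label states.

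Klf15 was at 0.300, 0 and 0.231 FPKM in cK15, against 1.54, 2.91 and 2.58 in control. The groups did not overlap, and the difference passed the threshold (log2 fold change -1.49, SE 0.24; limma adjusted p = 0.000215). Klf15 lies on chromosome 6 at 90462576 to 90475238 on the plus strand (GRCm38). The deleted exons were not named in the sources used here, so residual signal cannot be placed in the gene.

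Across 10600 tested genes, 120 passed the threshold at 8 pm (limma adjusted p under 0.05; 1.13%). More of them were lower than higher in cK15: 95 were lower (0.896%) and 25 were higher (0.236%). A change of at least 2-fold was found for 46 lower and 6 higher genes, and of at least 1.5-fold for 80 lower and 13 higher. Fold changes refer to log2(FPKM + 1), a scale that makes the change of weakly expressed genes look smaller than it is. All 3 cK15 libraries lay below all 3 control libraries for 94 of the 95 lower genes, and above for 25 of the 25 higher ones; among all tested genes these shares were 6.23% and 4.74%. The median over all tested genes was 0.00596 log2. FPKM is scaled to the library total, so this median cannot show whether levels shifted in general. Without the libraries that stood apart, 87 genes passed, 73 lower and 14 higher. Leaving out cK15 replicate 1 or 3 gave 74 and 77, and leaving out control replicate 2 or 4 gave 78 and 76. Each call was retested under 18 alternatives (other pseudocounts, filters, scalings, variance moderation and library sets), and wherever a call is said to be lost, the range or upper end of adjusted p given with it is over those of the 18 in which the gene was expressed enough to be tested.

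**Figure D1:**
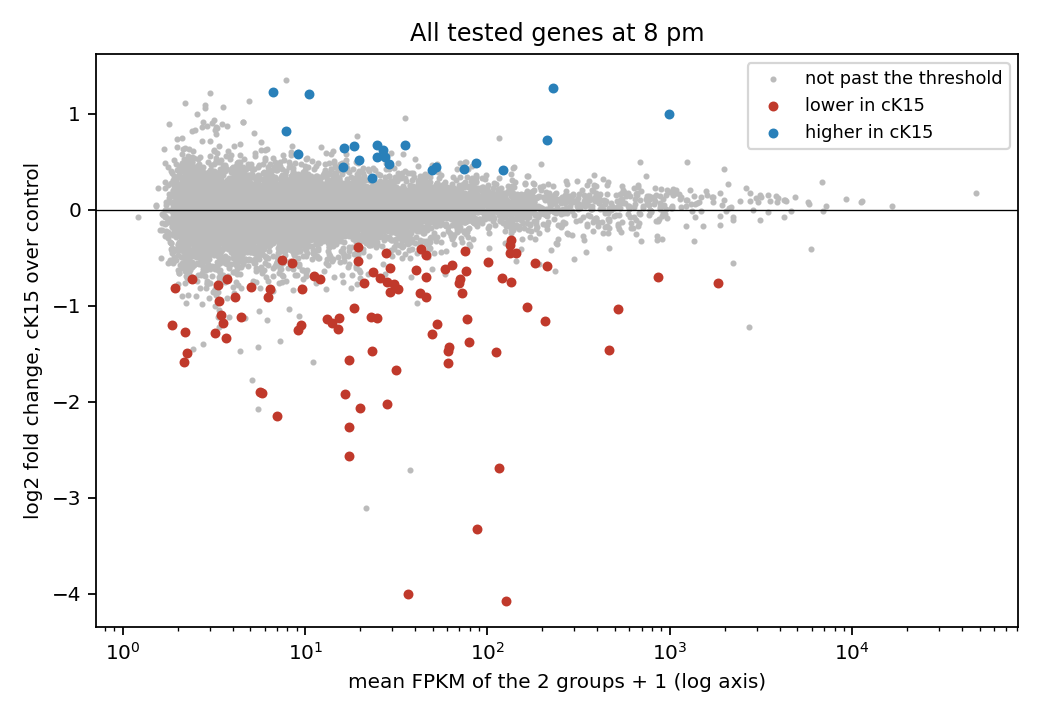
Each point is 1 of 10584 tested genes, with mean FPKM of the 2 groups + 1 on a log axis against the log2 fold change of cK15 over control at 8 pm. Among the points drawn, red ones (lower in cK15) reach further from 0 than most blue ones (higher in cK15). Not drawn are 16 genes with a group listed at 0, 3 of them past the threshold. These are Cth, which was lower, and Erdr1 and Rn45s, the higher genes furthest from 0.

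The 12 lowest log2 fold changes belonged mostly to metabolic enzymes. They were, from the lowest, Pttg1, Adhfe1, Gstm2, Gstk1, Fah, Cth, Bdh1, Pfkfb1, Ccbl2, Isoc2a, Fbp2 and 2610203C22Rik. Promoters are shown here for 5 lower genes, because CACCC is the element class that KLF proteins bind. The choice was made among genes with a single promoter entry that did not overlap the gene. Of these, Gstk1, Ccbl2 and Isoc2a had the lowest fold changes. Oat and Mccc2 had the smallest remaining adjusted p in the amino acid lists. The promoters are the 250 bases before the gene start, from RefSeq (GRCm38.p6). They are written 5′ to 3′ along the gene's strand, with CACCC or its reverse complement GGGTG in capitals. The intervals are Gstk1 chr6:42245685-42245934 (plus strand), Ccbl2 chr3:142700798-142701047 (plus strand), Isoc2a chr7:4876803-4877052 (plus strand), Oat chr7:132576399-132576648 (minus strand) and Mccc2 chr13:100015640-100015889 (minus strand).
Gstk1: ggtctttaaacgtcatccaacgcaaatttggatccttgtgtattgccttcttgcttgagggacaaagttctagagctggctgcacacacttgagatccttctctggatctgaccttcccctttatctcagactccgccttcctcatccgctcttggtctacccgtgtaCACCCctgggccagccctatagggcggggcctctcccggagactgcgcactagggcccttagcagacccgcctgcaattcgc
Ccbl2: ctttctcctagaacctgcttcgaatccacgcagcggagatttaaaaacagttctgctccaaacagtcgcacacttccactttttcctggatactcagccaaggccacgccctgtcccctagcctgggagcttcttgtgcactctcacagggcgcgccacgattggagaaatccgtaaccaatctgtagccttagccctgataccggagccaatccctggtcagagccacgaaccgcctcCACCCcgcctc
Isoc2a: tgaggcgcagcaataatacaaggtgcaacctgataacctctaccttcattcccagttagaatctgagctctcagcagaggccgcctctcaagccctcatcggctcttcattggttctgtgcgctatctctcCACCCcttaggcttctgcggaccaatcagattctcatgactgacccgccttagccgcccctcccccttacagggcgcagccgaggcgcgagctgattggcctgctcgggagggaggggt
Oat: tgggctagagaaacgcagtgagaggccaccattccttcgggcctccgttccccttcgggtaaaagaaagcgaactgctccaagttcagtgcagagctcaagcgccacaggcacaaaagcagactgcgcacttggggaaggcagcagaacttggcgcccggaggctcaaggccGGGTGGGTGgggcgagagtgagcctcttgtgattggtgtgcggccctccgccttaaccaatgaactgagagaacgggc
Mccc2: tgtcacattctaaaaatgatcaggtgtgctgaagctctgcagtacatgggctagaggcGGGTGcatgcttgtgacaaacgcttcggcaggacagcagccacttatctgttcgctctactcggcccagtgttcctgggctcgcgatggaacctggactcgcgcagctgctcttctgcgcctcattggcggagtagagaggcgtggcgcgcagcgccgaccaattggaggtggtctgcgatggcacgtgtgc
Searched on both strands, the letters CACCC occurred in 53 of the 75 lower genes with a promoter in the table (70.7%), in 14 of 20 higher genes (70.0%) and in 4815 of 8484 tested genes (56.8%). The GC-box letters GGGCG occurred in 64.0% of lower, 80.0% of higher and 74.0% of tested genes. Lower and higher genes held CACCC about equally often. A match describes these letters only and is not a mapped binding site.

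Of 24 genes of branched-chain amino acid breakdown tested, 10 fell in cK15 hearts and 0 rose (41.7% lower, against 0.896% of all tested genes). Their median was -0.42 log2, against 0.00596 over all genes, and 18 of the 24 were below 0, against 48.5% of all. Ivd, isovaleryl-CoA dehydrogenase of the leucine branch, was at 122.2, 125.4 and 132.3 FPKM in cK15, against 296.9, 272.9 and 283.4 in control (-1.16, SE 0.08; limma adjusted p = 1.04e-11). The groups were far apart and tight. Bcat2, the mitochondrial transaminase that starts the pathway, was at 34.8, 28.1 and 30.4 FPKM in cK15, against 70.2, 64.3 and 82.5 in control (-1.19, SE 0.11; limma adjusted p = 1.47e-08). Bckdhb and Bckdha encode the E1 subunits of the ketoacid dehydrogenase that commits the carbon to oxidation. Bckdhb was at 32.9, 29.6 and 33.5 FPKM in cK15, against 96.8, 82.9 and 85.4 in control (-1.43, SE 0.14; limma adjusted p = 2.3e-08), and Bckdha at 101.2, 106.4 and 113.5, against 225.2, 196.3 and 233.5 (-1.02, SE 0.11; limma adjusted p = 1.43e-07). For both, the highest cK15 library was below the lowest control library.

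The other members that fell were the E2 subunit Dbt (-1.11), the methylcrotonyl-CoA carboxylase subunits Mccc1 (-0.76) and Mccc2 (-0.76), methylmalonate semialdehyde dehydrogenase Aldh6a1 (-1.47) and the dehydrogenases Acadsb (-0.57) and Hsd17b10 (-0.45). Mccc2, whose promoter is shown above, was at 49.9, 52.1 and 49.5 FPKM in cK15, against 93.4, 81.0 and 85.1 in control. Members that work beside or after these steps did not pass: the kinase Bckdk, which restrains the dehydrogenase, averaged 75.0 FPKM in cK15 and 74.6 in control, and the shared E3 subunit Dld averaged 426 and 359. Between them stood Ppm1k, the phosphatase that activates the dehydrogenase (-0.82; limma adjusted p = 0.0854), and Mut, methylmalonyl-CoA mutase (-0.67; limma adjusted p = 0.0581). The calls of Acadsb and Hsd17b10 were the weakest. Hsd17b10 lost its call without each of the 6 libraries and in the 24 others (limma adjusted p from 0.00581 to 0.171), and Acadsb without any single library but control replicate 3 (4.15e-06 to 0.252). The list counted 12 lower genes in the 24 others and 8 or 9 when a single library was left out.

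Other amino acid and sulfur enzymes included several of the lowest genes of all, while most of the list did not pass. Of 27 tested, 7 fell and 0 rose (25.9% lower, against 0.896% of all tested genes), with a median of -0.16 log2 that was -0.25 without cK15 replicate 4 and -0.097 over genes of at least 5 FPKM. Fah, which completes tyrosine breakdown, was at 3.83, 2.63 and 5.78 FPKM in cK15, against 25.9, 23.7 and 36.1 in control (-2.57, SE 0.26; limma adjusted p = 5.06e-08). Ccbl2, a kynurenine aminotransferase, was at 7.53, 6.27 and 6.38 FPKM in cK15, against 30.6, 31.4 and 31.8 in control (-2.06, SE 0.11; limma adjusted p = 3.23e-14). Cth, the cystathionine gamma-lyase that makes cysteine and hydrogen sulfide, was listed at 0 in all 3 cK15 libraries, against 5.22, 4.51 and 4.22 FPKM in control (limma adjusted p = 9.31e-10), so no fold is given. All 3 genes separated the groups completely.

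Proline and ornithine enzymes fell as well. Prodh, which opens proline breakdown, was at 6.79, 7.92 and 8.51 FPKM in cK15, against 27.3, 20.2 and 27.9 in control (-1.57, SE 0.18; limma adjusted p = 9.82e-07). Oat, ornithine aminotransferase, averaged 90.0 ± 3.65 FPKM in cK15, against 148 ± 5.75 in control (SD, n = 3 each; -0.71, SE 0.07; limma adjusted p = 3.24e-08). Aldh4a1, which acts after both, fell by 0.86 and the alanine aminotransferase Gpt by 0.78. The Gpt call was lost without cK15 replicate 3, control replicate 2 or control replicate 4 and in the 24 others (limma adjusted p from 0.000493 to 0.198). Of the broader aminotransferases, Got1 averaged 579 FPKM in cK15 and 513 in control, Got2 352 and 307, and Gpt2 21.2 and 16.2; none passed.

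Among hydroxyacid and ketone body enzymes, 3 of 12 fell and 0 rose (25.0% lower, against 0.896% of all tested genes; median -0.21 log2, or -0.10 over genes of at least 5 FPKM). Adhfe1, a mitochondrial hydroxyacid oxidoreductase that oxidises 4-hydroxybutyrate, was at 3.44, 3.88 and 2.52 FPKM in cK15, against 69.3, 59.5 and 74.0 in control (-4.01, SE 0.20; limma adjusted p = 6.42e-15). Bdh1, which interconverts the ketone bodies, was at 3.25, 4.80 and 6.74 FPKM in cK15, against 18.2, 38.4 and 26.6 in control (-2.26, SE 0.41; limma adjusted p = 0.00121). Abat, the GABA transaminase, averaged 1.06 ± 0.277 FPKM in cK15, against 4.26 ± 1.19 in control (SD, n = 3 each; -1.34, SE 0.18; limma adjusted p = 1.65e-05). Each group stayed on its own side in all 3. Oxct1, which activates ketone bodies for oxidation, averaged 904 FPKM in cK15 and 863 in control and did not pass. 2610203C22Rik, also among the 12 lowest (-1.91), overlaps Adhfe1 on the opposite strand of chromosome 1, and no source used here says how strand was counted, so its reads may be shared.

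**Figure D2:**
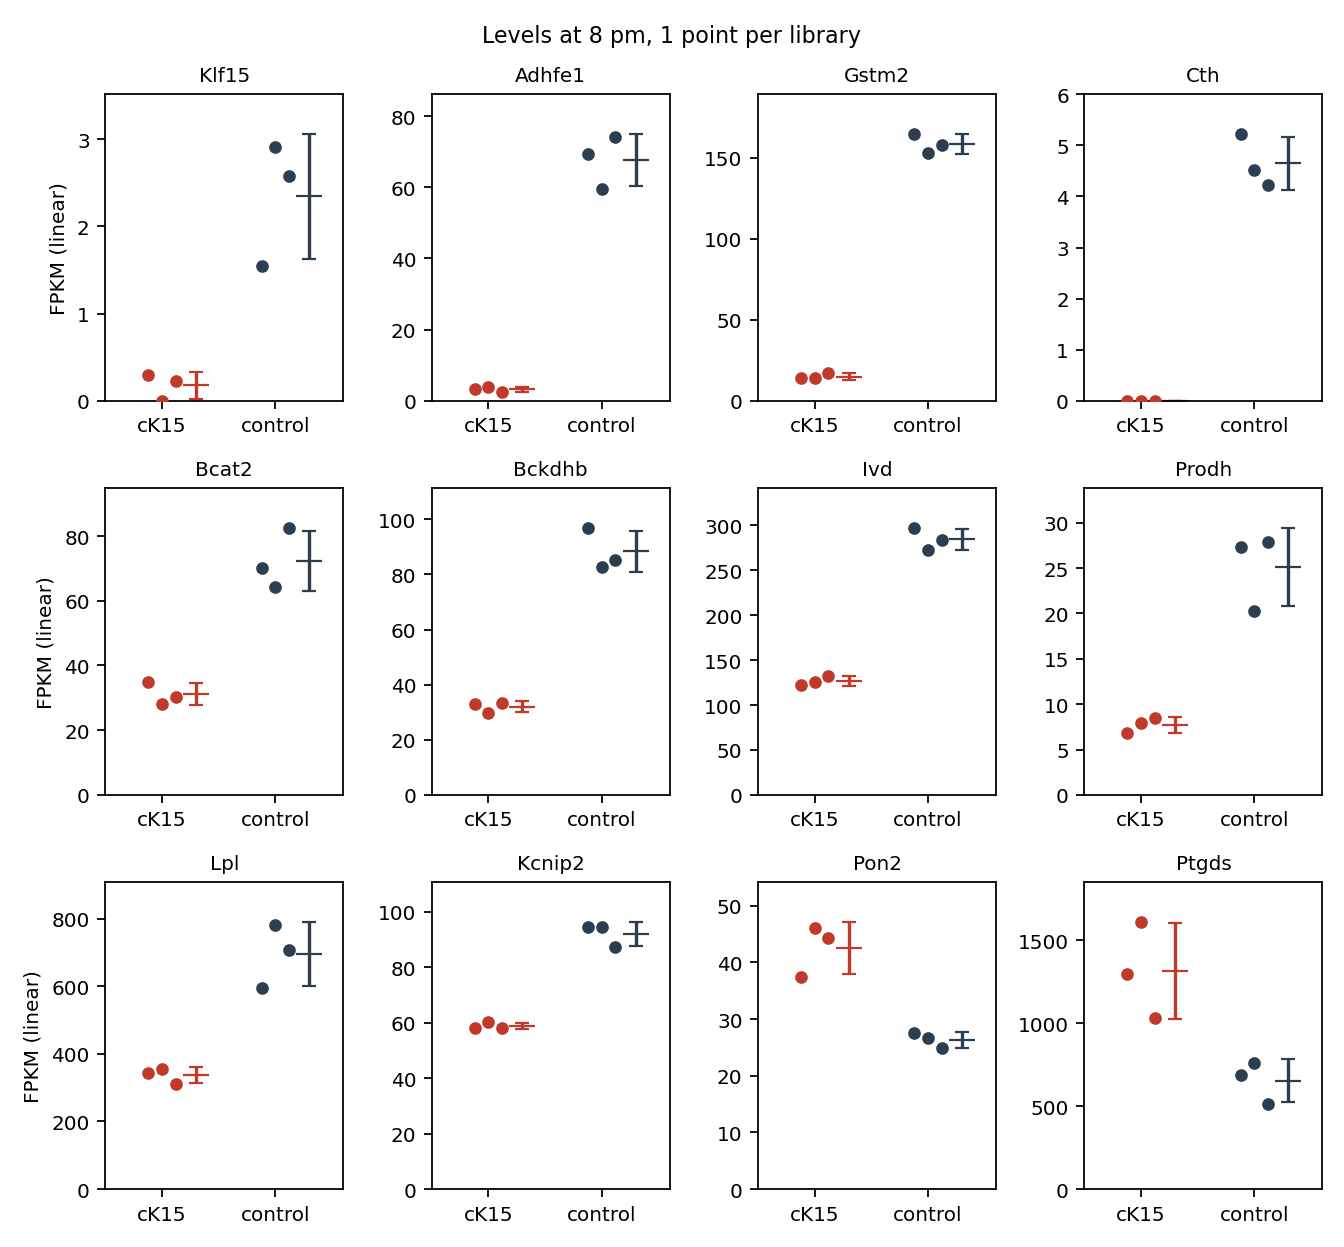
FPKM (linear axis from 0) of 12 genes at 8 pm, with 1 point per library, and beside the points the mean and SD of 3 libraries; cK15 is red and stands left of control. The cK15 points lie below the control points for 10 genes and above them for Pon2 and Ptgds.

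Glutathione transferases and related detoxifying enzymes held the next lowest values. Of 32 tested, 6 fell and 0 rose (18.8% lower, against 0.896% of all tested genes). Their median was -0.22 log2, and -0.13 without control replicate 4. Gstm2, a mu-class cytosolic transferase, was at 13.8, 13.97 and 17.2 FPKM in cK15, against 164.7, 153.0 and 157.8 in control (-3.33, SE 0.13; limma adjusted p = 3.04e-17). Gstk1, the mitochondrial and peroxisomal kappa-class enzyme, was at 33.0, 29.8 and 27.0 FPKM in cK15, against 227.1, 190.2 and 182.2 in control (-2.70, SE 0.14; limma adjusted p = 1.66e-14). The ranges of both genes were far from touching. Gstm7 (-1.67) and Gstm1 (-0.59), which lie within 100 kb of Gstm2 on chromosome 3, fell too. These 3 are close copies of each other, so reads may have been split among them and their separate values are uncertain; Gstm5, at 141 FPKM in cK15 and 145 in control, did not pass. Aldh2, which clears acetaldehyde and lipid aldehydes, was at 52.0, 42.7 and 46.8 FPKM in cK15, against 120.3, 102.0 and 93.7 in control (-1.14, SE 0.13; limma adjusted p = 9.59e-07), and the quinone reductase Nqo1 fell by 0.62. Enzymes that make, recycle or spend glutathione by other routes (Gclc, Gclm, Gss, Gsr, Gpx1, Gpx4) and the superoxide dismutases Sod1 and Sod2 did not pass.

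Of 39 fatty acid uptake and oxidation genes, 6 fell and 0 rose (15.4% lower, against 0.896% of all tested genes). Their median was -0.24 log2, and 31 of 39 had fold changes below 0, against 48.5% of all tested genes. Lpl, the lipase that releases fatty acids from blood lipoproteins, was at 343.9, 355.9 and 311.4 FPKM in cK15, against 595.4, 782.8 and 707.5 in control (-1.03, SE 0.11; limma adjusted p = 7.21e-08). Slc25a20, which carries acylcarnitines into mitochondria, was at 151.4, 147.2 and 135.4 FPKM in cK15, against 252.3, 169.2 and 228.2 in control (-0.56, SE 0.11; limma adjusted p = 0.00409). Control replicate 3 was the closest to the cK15 libraries there. Cpt1a, a carnitine palmitoyltransferase, fell by 0.54, Pdk4, the kinase that restrains glucose oxidation, by 1.29, Ucp3, a mitochondrial carrier, by 1.25, and Acot1, an acyl-CoA thioesterase with a close copy Acot2, by 1.20. The count depended on how the libraries were treated: it was 16 with a term for the library set, 1 in the 6 libraries of 8 pm alone and 2 (without control replicate 2 or 4) to 7 (without control replicate 3) when 1 library was left out. In the 24 others only Lpl and Echs1, a gene not called in the full set, passed, and Acot1 was too low to be tested. Cpt1a lost its call without cK15 replicate 4, control replicate 2 or control replicate 4 (limma adjusted p from 0.00175 to 0.342). Slc25a20 lost it without control replicate 2 (up to 0.338), and Acot1 without cK15 replicate 1 or 4 (up to 0.0883). Pdk4 and Ucp3 lost theirs without cK15 replicates 1 or 3 or control replicates 2 or 4, and Pdk4 also without cK15 replicate 4 (up to 0.304 and 0.416). With replicate numbers as a block Ucp3 did not pass (limma adjusted p = 0.0641).

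Steps on either side of that list behaved unevenly. Cpt1b, the main muscle form of the transferase, averaged 566 FPKM in cK15 and 542 in control, and the dehydrogenase Acadm 1307 and 1328; neither passed. Gpam, which starts triglyceride synthesis, was the 1 gene of 17 in the lipid droplet list to pass (5.88%, against 0.896% of all tested genes called lower). It was at 103.5, 90.5 and 99.7 FPKM in cK15, against 165.2, 135.4 and 203.5 in control (-0.76, SE 0.11; limma adjusted p = 3.3e-05). Pxmp2, a peroxisomal membrane channel outside the lists and chosen after its values were seen, averaged 29.2 ± 4.68 FPKM in cK15, against 90.1 ± 7.91 in control (SD, n = 3 each; -1.60, SE 0.16; limma adjusted p = 3.69e-08).

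Central carbon and energy genes gave isolated calls at 8 pm. Of 34 glucose and glycogen genes 1 fell and 1 rose. Of 18 citric acid cycle genes 0 passed (limma; 3 at unadjusted p under 0.05), and of 23 respiratory chain and ATP synthase genes 1 fell. Over all tested genes 0.896% fell, 0.236% rose and 7.68% had an unadjusted p under 0.05 (limma). Counts this small do not show whether these lists differ from all genes. Pfkfb1, which sets the level of the phosphofructokinase activator fructose 2,6-bisphosphate, was at 1.85, 1.68 and 1.01 FPKM in cK15, against 14.8, 6.26 and 10.7 in control (-2.15, SE 0.28; limma adjusted p = 1.06e-05). Fbp2, the muscle fructose-bisphosphatase that works in the reverse direction and was not in the list, was at 5.66, 5.29 and 5.84 FPKM in cK15, against 33.2, 13.9 and 29.9 in control (-1.93, SE 0.27; limma adjusted p = 2.11e-05). For both, control replicate 3 was the lowest control library and still above all cK15 libraries. Cox6a2, the muscle form of a cytochrome oxidase subunit, was at 1148, 1272 and 1703 FPKM in cK15, against 2418, 1883 and 2653 in control (-0.76, SE 0.19; limma adjusted p = 0.035). Its call was lost without cK15 replicates 1 or 3 or control replicates 2 or 4 (limma adjusted p from 4.03e-05 to 0.229). The other 22 respiratory genes had fold changes between 0.00163 and 0.23 log2, all above 0 and none past the threshold. Ckb, the brain-type creatine kinase, was the 1 gene of 20 to pass in the NAD, creatine and phosphotransfer list (5.0%, against 0.896% of all tested genes called lower), with a log2 fold change of -0.61 (limma adjusted p = 0.0181). It lost its call in the 24 others and without cK15 replicates 1 or 3 or control replicates 3 or 4 (0.000706 to 0.413).

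No gene of the core clock and its output passed at 8 pm (0 of 17; limma; 1 at unadjusted p under 0.05, against 7.68% of all tested genes). Dbp, an activator of clock output genes, was at 9.09, 15.5 and 17.97 FPKM in cK15, against 19.1, 18.7 and 27.5 in control (-0.61, SE 0.26; limma adjusted p = 0.463). All 3 cK15 values were below the control values, but the spread within each group was wide. The repressors Per1 (-0.13), Per2 (0.08), Per3 (-0.10), Cry1 (0.12) and Cry2 (-0.20) and the activators Arntl (0.20), Npas2 (0.23) and Clock (0.13) had SEs of 0.16 to 0.30, so differences of that size could not be resolved. Nr1d1 (-0.29), Nr1d2 (-0.13), Rora (-0.06), Bhlhe40 (-0.16), Bhlhe41 (-0.05), Tef (-0.23) and Gm129 (-0.25) did not pass either. Of 16 glucocorticoid-responsive genes 0 passed (limma; 0 at unadjusted p under 0.05), nor did any of the 8 Kruppel-like factors tested beside Klf15.

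**Figure D3:**
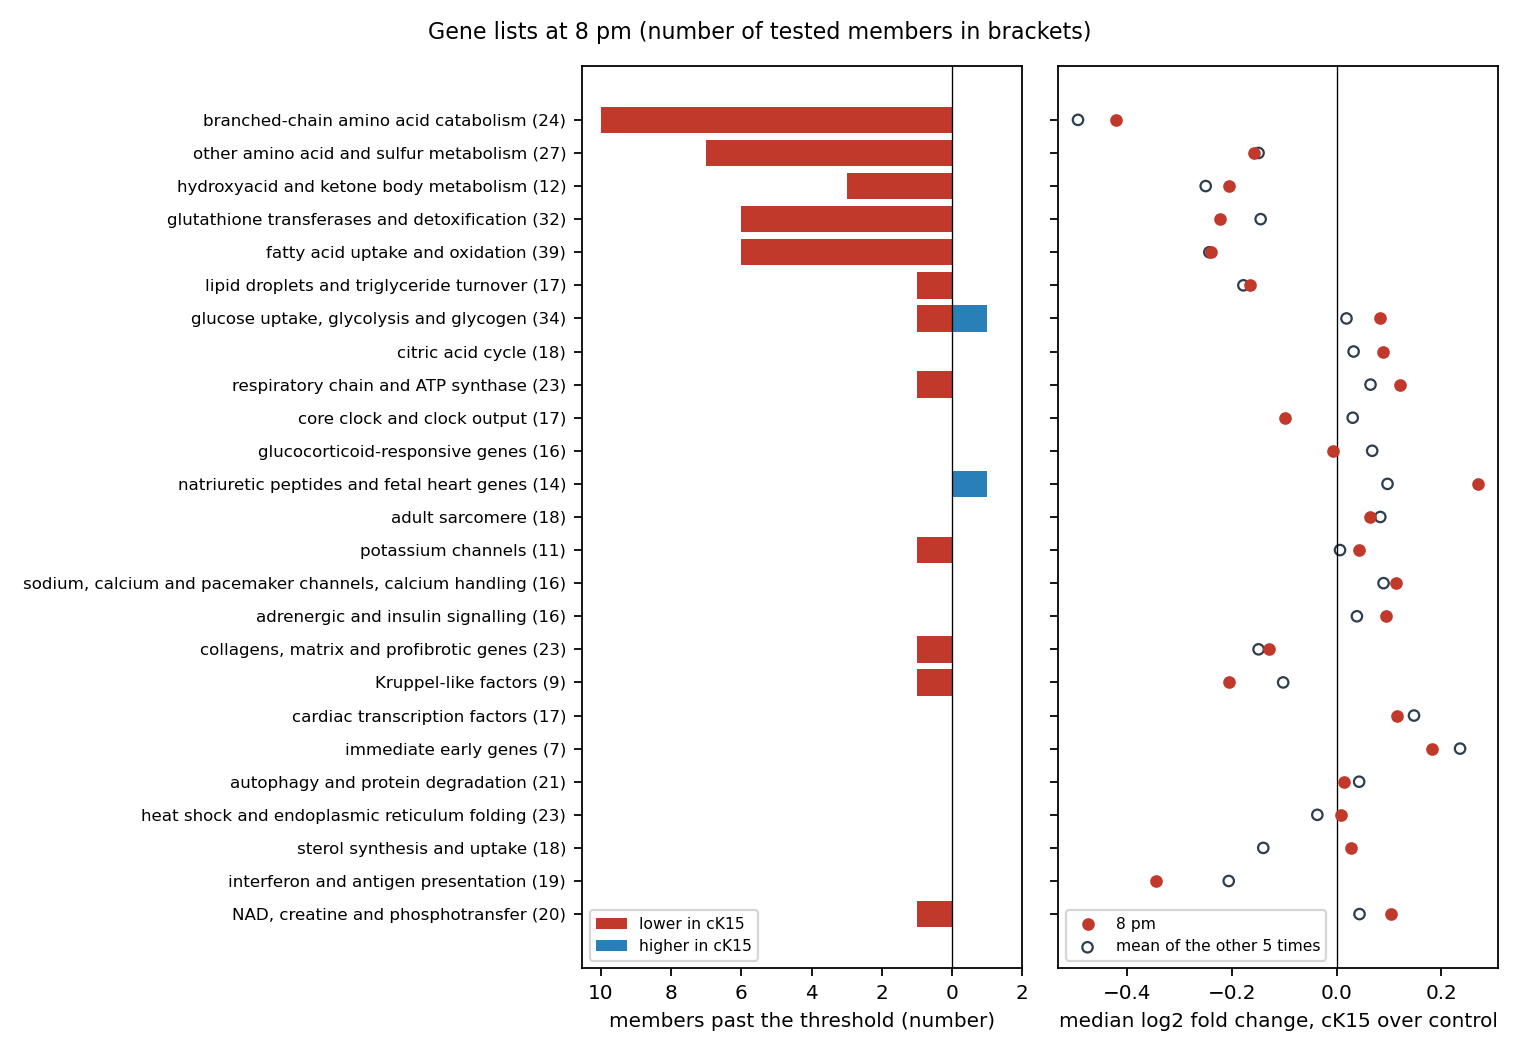
Left, number of tested members of each gene list past the threshold at 8 pm, lower in cK15 (red, to the left) or higher (blue, to the right); right, median log2 fold change of cK15 over control at 8 pm (filled) and in the mean of the other 5 times (open). Among the lists, the metabolic ones at the top carry most of the lower calls, from 10 in branched-chain amino acid catabolism to 3 in hydroxyacid and ketone body metabolism. Of the 95 lower genes, 39 are in a list, against 482 of all 10600 tested genes.

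In the natriuretic peptide and fetal heart gene list, 1 of 14 genes rose and 0 fell (0.236% of all tested genes rose). The median was 0.27 log2, and 0.15 in the 24 others. Nppb, which encodes the B-type natriuretic peptide released by stretched heart muscle, was at 294.7, 287.4 and 331.9 FPKM in cK15, against 99.8, 270.2 and 73.8 in control (1.27, SE 0.32; limma adjusted p = 0.0463). The cK15 libraries were alike, whereas control replicate 3 was close to them and the other control libraries lay far below. The call was lost in 12 of 18 alternatives, over a range of limma adjusted p from 0.000252 to 0.622. It was lost in the 24 others, in the 6 libraries of 8 pm alone and without cK15 replicates 1, 3 or 4 or control replicates 2 or 4. The call was also lost with the replicate block (limma adjusted p = 0.0937), a term for the library set, no filter on low values, quantile normalization or plain variance moderation. Nppa, the atrial natriuretic peptide gene, was at 130.0, 102.4 and 164.7 FPKM in cK15, against 39.3, 185.3 and 62.1 in control (0.75, SE 0.47; limma adjusted p = 0.832). Control replicate 3 was again the high control library, here above every cK15 library. Among the atrial markers, Myl7 was at 3.76, 5.29 and 0.368 FPKM in cK15, against 3.90, 4.16 and 43.0 in control, and Myl4 at 2.67, 3.12 and 2.94, against 1.84, 5.34 and 27.2, so control replicate 4 alone stood high for both. Of 5 atrial markers tested 0 passed (limma; 1 at unadjusted p under 0.05), their summed level was 133.7 to 183.9 FPKM in cK15 and 66.3 to 213.8 in control, and Sln was listed at 0 in all 6 libraries. Their part in the Nppb result was not tested.

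**Figure D4:**
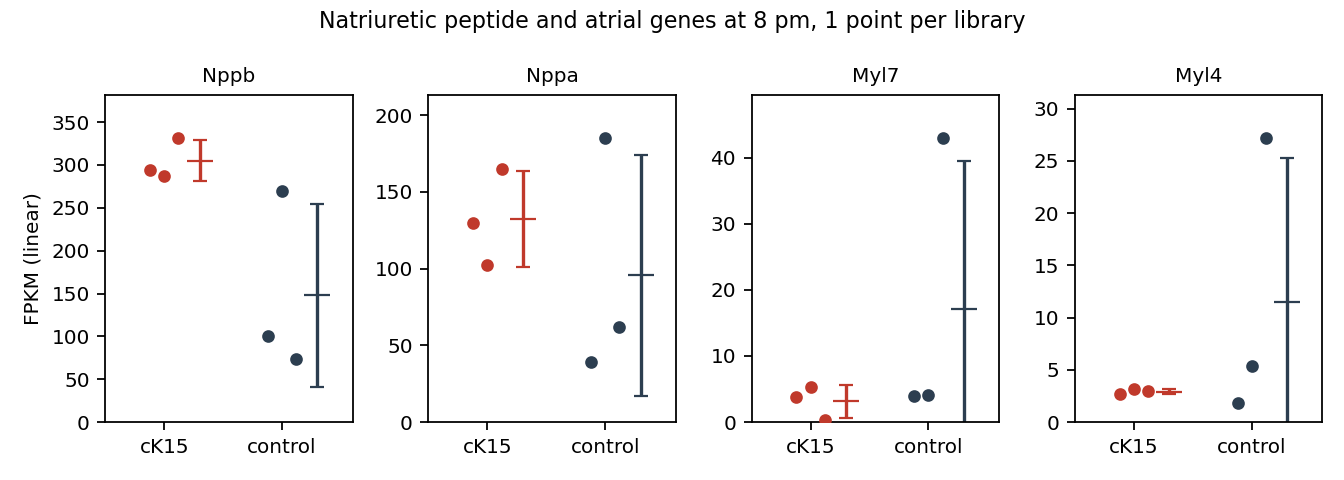
FPKM (linear axis from 0) of Nppb, Nppa, Myl7 and Myl4 at 8 pm, with 1 point per library and the mean and SD of 3 libraries beside them (bars cut at 0); cK15 is red and left of control. Control replicate 3, at 270.2 FPKM for Nppb, is high for the peptides, and control replicate 4, at 43.0 FPKM for Myl7, is high for the atrial light chains.

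The other heart lists had few or no calls. Over all tested genes 1.13% passed and 7.68% had an unadjusted p under 0.05 (limma). At those shares, a count of 0 in lists of this size says little about them. Of 18 adult sarcomere genes 0 passed (limma; 3 at unadjusted p under 0.05), and so did 0 of 16 sodium, calcium and pacemaker channel and calcium handling genes (1 at unadjusted p under 0.05), 0 of 16 adrenergic and insulin signalling genes (1), 0 of 17 cardiac transcription factors (1) and 0 of 7 immediate early genes (1). Kcnip2, the partner of Kv4 potassium channels that shapes early repolarisation, was at 58.3, 60.1 and 58.2 FPKM in cK15, against 94.6, 94.4 and 87.2 in control (-0.64, SE 0.10; limma adjusted p = 0.000164). It was 1 of 11 potassium channel genes to pass (9.09%, against 0.896% of all tested genes called lower), and its call held in all 18 alternatives. The channels that it binds, Kcnd2 (0.46; limma adjusted p = 0.749) and Kcnd3 (0.39; limma adjusted p = 0.746), did not pass.

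In the matrix list Col3a1 alone passed of 23 (4.35%, against 0.896% of all tested genes called lower). It was at 70.6, 77.1 and 94.3 FPKM in cK15, against 96.1, 126.3 and 133.9 in control (-0.55, SE 0.13; limma adjusted p = 0.0214). Among other cell markers, 7 of 7 tested fibroblast markers and 7 of 9 macrophage markers had fold changes below 0, with medians of -0.32 and -0.24, and 0 of either passed (limma; 3 each at unadjusted p under 0.05). The fibroblast median was -0.17 without control replicate 4. The macrophage median was 0.02 in the 24 others, and with 1 library left out it ranged from -0.45 without control replicate 2 to -0.11 without cK15 replicate 4. The summed fibroblast markers were at 1311 to 1509 FPKM in cK15 and 1522 to 1635 in control, and the macrophage markers at 159.5 to 179.0 and 186.1 to 247.6, without overlap in either. Their part in the Col3a1 result was not tested. The Col3a1 call was lost in the 24 others and without cK15 replicates 1 or 3 or control replicates 3 or 4 (limma adjusted p from 0.00323 to 0.394). Interferon and antigen presentation genes were lower in 18 of 19 tested with a median of -0.34 log2 (-0.22 without control replicate 4), but 0 passed (limma; 5 at unadjusted p under 0.05, all lower, against 4.75% of all tested genes). The nearest was Ifi27l2a, an interferon-induced gene, at 26.5 FPKM in cK15 and 53.2 in control on average (limma adjusted p = 0.0561).

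Of the other markers, 0 of 8 cardiomyocyte, 8 endothelial, 7 smooth muscle and pericyte, 6 blood, 2 Schwann and nerve, 5 mesothelial and 4 nuclear RNA genes passed (limma; 0 at unadjusted p under 0.05 in each). Lymphocyte and adipocyte markers were too low to test, with Cd3e, Adipoq, Lep and Adrb3 listed at 0 in all 6 libraries. Of 4 skeletal muscle markers tested, 3 had fold changes above 0 without passing (Acta1 0.45, Mylpf 0.45 and Tnnt3 0.34), and the summed level was 151.5 to 226.2 FPKM in cK15 and 138.3 to 185.1 in control. The remaining marker, Myl1, a fast-muscle myosin light chain, fell, at 10.8, 10.3 and 13.0 FPKM in cK15, against 27.6, 33.9 and 38.8 in control (-1.47, SE 0.28; limma adjusted p = 0.0028), and its call held in all 18 alternatives. Scn4a, the skeletal muscle sodium channel, outside the lists and chosen after its values were seen, averaged 1.19 ± 0.0419 FPKM in cK15, against 3.76 ± 1.01 in control (SD, n = 3 each; limma adjusted p = 0.00953), a call lost in the 24 others and without cK15 replicate 1, control replicate 2 or control replicate 4 (up to 0.107). The autophagy (0 of 21, 2 at unadjusted p under 0.05), heat shock and endoplasmic reticulum (0 of 23, 6) and sterol (0 of 18, 1) lists had no call by limma, where 7.68% of all tested genes had an unadjusted p under 0.05.

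The genes with the lowest values also included some outside the metabolic lists. Pttg1, securin, which holds sister chromatids together before cell division, was at 11.1, 15.6 and 12.8 FPKM in cK15, against 257.5, 238.6 and 212.5 in control (-4.07). The groups were far apart at 8 pm, but its SE, which uses the spread in all 12 groups, was 0.95, and the call was lost in the 24 others and without any 1 of the 6 libraries (limma adjusted p from 7.35e-07 to 0.109). Isoc2a, an isochorismatase domain protein, was at 11.1, 9.31 and 9.78 FPKM in cK15, against 50.4, 36.5 and 46.2 in control (-2.03, SE 0.13; limma adjusted p = 7.56e-12). Rps2, a ribosomal protein gene chosen here because its libraries overlap, was at 119.2, 150.0 and 642.6 FPKM in cK15, against 608.4, 584.4 and 685.6 in control. cK15 replicate 4 stood with the control libraries, and with the replicate block the call was lost (limma adjusted p = 0.0641; up to 0.807 over the alternatives).

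Fewer genes rose, and most by less than 2-fold. Pon2, an intracellular lactonase of the paraoxonase family, was at 37.4, 46.0 and 44.2 FPKM in cK15, against 27.5, 26.6 and 24.8 in control (0.67, SE 0.12; limma adjusted p = 0.000706). Ptgds, which makes prostaglandin D2, was at 1297, 1609 and 1032 FPKM in cK15, against 689.0, 762.7 and 509.9 in control (1.00, SE 0.22; limma adjusted p = 0.0152). Rab4a, a GTPase of early endosomes, was at 8.21, 10.5 and 6.35 FPKM in cK15, against 3.69, 2.37 and 2.85 in control (1.22, SE 0.30; limma adjusted p = 0.037). No cK15 library overlapped a control library in these 3 genes. Rab4a lost its call with the replicate block (limma adjusted p = 0.0781), in the 24 others and without any single library but cK15 replicate 4 (up to 0.229), and Ptgds without cK15 replicates 1 or 3 or control replicate 4 (up to 0.158). Dhrs7c, a dehydrogenase of the muscle sarcoplasmic reticulum, rose by 0.72, with control replicate 2 at 223.9 FPKM near the cK15 libraries at 244.4 to 270.6. The zinc-finger gene Zmym1 (0.82), the ubiquitin ligase Rnf34 (0.66), the phosphorylase kinase subunit Phkg1 (0.67) and Sumf2 (0.64), which acts on sulfatases, completed the named genes with a measured fold.

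Most of these calls needed single libraries. Dhrs7c lost its call without any 1 of them but control replicate 2, and Rnf34 without any 1 but cK15 replicate 4 (limma adjusted p up to 0.315 and 0.236). Phkg1 lost its call without cK15 replicates 3 or 4 or control replicates 2 or 3 (up to 0.394), Zmym1 without cK15 replicates 1 or 4 or control replicates 3 or 4 (up to 0.367), and Sumf2 without replicate 3 of either genotype (up to 0.202). Dhrs7c, Rnf34, Zmym1 and Sumf2 also lost theirs in the 24 others. Pon2 kept its call in the 24 others and without each library. Phkg1 and Sumf2 overlap on opposite strands of chromosome 5, and their reads may be shared. Erdr1 and Rn45s, which come from repeated sequence, were listed at 0 in all 3 control libraries. Erdr1 was at 38.1, 27.5 and 29.8 FPKM in cK15, and Rn45s, the precursor of ribosomal RNA, at 1004, 229.8 and 1044, so no fold is given for either. Of the 25 higher genes 2 were in a function list, against 39 of the 95 lower ones and 482 of all 10600 tested genes. The lists were chosen with earlier results of these data known, so these counts partly reflect that choice.

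Called genes lay on most chromosomes, with 12 on chromosome 7, 10 on chromosome 11 and 8 each on chromosomes 3 and 12. Starts of 9 pairs lay within 100 kb of each other. Among the higher genes, Ten1, a telomere-capping protein gene on chromosome 11, was at 18.6, 11.2 and 11.2 FPKM in cK15, against 7.16, 5.21 and 3.73 in control (1.20, SE 0.25; limma adjusted p = 0.00828). How strand was counted is not known, so reads of a gene overlapping it on the other strand may be included. The Ten1 call was lost in the 24 others and without cK15 replicate 1 or control replicate 4 (up to 0.118).

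Most of the lower genes were lower at the other times too. Those times share no library with 8 pm, but all calls come from 1 fit with a shared estimate of each gene's spread. Calls at different times are therefore not independent. Of the 95, 86 were called lower at 1 or more of the other 5 times, against 1.84% of all tested genes, 49 at each of them, against 0.5%, and 91 had the same sign at all 5, against 14.6%. The mean of the other times was called lower for 92 of them, against 5.94%. Their median was -0.91 log2 at 8 pm and -0.92 in the other times. Of the 25 higher genes, 8 were called higher at 1 or more of the other 5 times (0.453% of all tested genes) and 0 at all of them (0.0189%), 19 had the same sign at all 5 (10.8% of all tested genes), and the mean of the other times was called higher for 21 (2.87%). Their median was 0.62 log2 at 8 pm and 0.28 in the other times, and since they were chosen on their 8 pm value this gap is partly fixed by the choice.

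**Figure D5:**
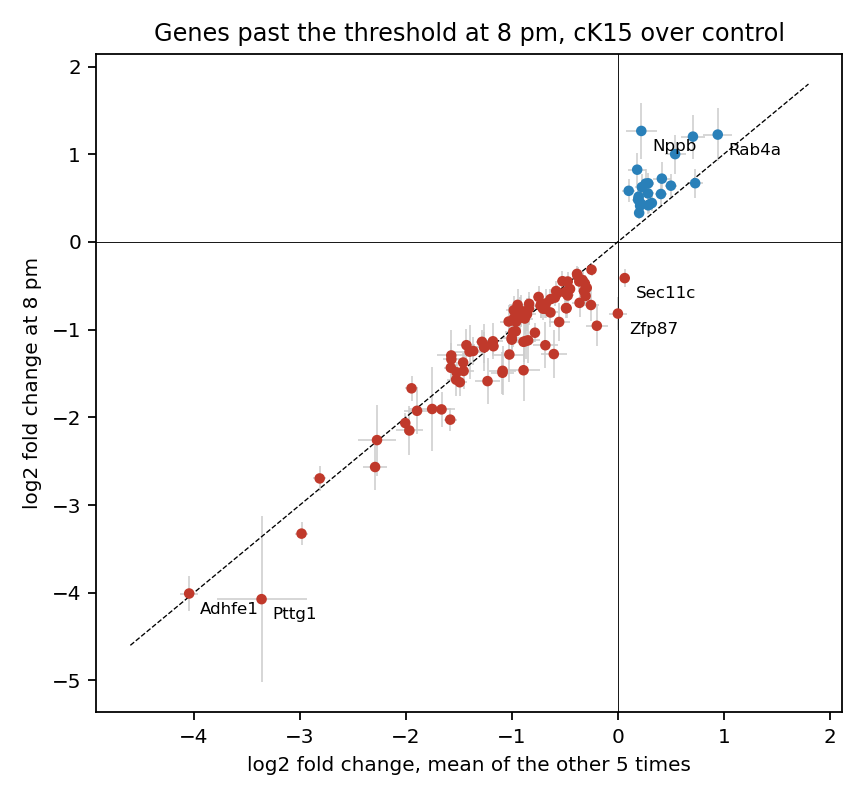
Log2 fold change of cK15 over control in the mean of the other 5 times (horizontal) against that at 8 pm (vertical) for 117 genes past the threshold at 8 pm, with SEs as grey lines and equality as the dashed line. Lower genes (red) follow the line closely, with Adhfe1 at -4.04 and -4.01, and higher genes (blue) lie mostly above it, with Nppb at 0.22 and 1.27. Cth, Erdr1 and Rn45s, with a group listed at 0, are not drawn.

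Tested directly, the 8 pm difference departed from the mean of the other 5 in 1 gene of 10600 (0.00943%; limma; 261 at unadjusted p under 0.05), and that gene was Rn45s (limma adjusted p = 0.00032). Every other gene had an adjusted p of at least 0.781. The 6 smallest unadjusted p after it, none passing, belonged to Ccr9, Sec11c, Zfp87, Chchd4, Pcgf6 and Hpcal1. Sec11c, a signal peptidase subunit, was at 33.8, 36.4 and 38.4 FPKM in cK15, against 49.1, 50.7 and 45.7 in control at 8 pm (-0.41), and had a mean difference of 0.07 at the other times. Ccr9, a chemokine receptor, had differences of 0.40 and -0.39. So no other called gene was shown to be particular to 8 pm, Nppb included (1.27 at 8 pm, 0.22 at the other times; unadjusted p = 0.00644).

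A set of 6 genes passed at each of the other 5 times and not at 8 pm, which is not a test of a difference between times. Mut, Echs1, a shared hydratase of fatty acid and branched-chain breakdown, Ldhd, a lactate dehydrogenase for D-lactate, and Alox5, a lipoxygenase, were the lower ones. Echs1 was at 379.3, 422.7 and 404.0 FPKM in cK15, against 560.0, 502.1 and 526.3 in control (-0.40; limma adjusted p = 0.0788). The higher ones were the overlapping neighbours Pigh and Plekhh1. Pigh, which acts in GPI anchor synthesis, was at 4.83, 4.60 and 7.74 FPKM in cK15, against 2.70, 2.43 and 3.23 in control (0.80, SE 0.27; limma adjusted p = 0.215), and averaged 1.47 log2 at the other times. In all 6 genes the groups did not overlap at 8 pm. Among all tested genes, all cK15 libraries lay below all control libraries for 6.23% and above for 4.74%. The smallest unadjusted p of their departure was 0.0319, for Pigh (limma adjusted p = 0.9999), so none was shown to differ between 8 pm and the other times.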

How the data were processed

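RNA of the heart apex was sequenced in 36 libraries, 3 for each of 2 genotypes at 6 times, from stranded total RNA libraries read as 100 bp pairs, per the labels' protocols. The authors deposited FPKM per gene symbol and library, 23352 entries, in a table for each genotype. GSNAP, HTSeq and mm10 are named in the submitters' processing notes. Their versions and roles, the annotation and how FPKM was calculated were not given in the sources used here. Because FPKM is scaled to the library total, very abundant genes can depress all others. Ttn is listed at 0 in every library, so a 0 is not always a true absence.

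Tests used limma 3.58.1 (R 4.3.3) on log2(FPKM + 1), for genes whose 36 libraries averaged 1 FPKM or more and for Klf15, with 12 group means and trended, robust variance moderation. P-values were adjusted by Benjamini-Hochberg over all 10600 genes, threshold 0.05, for cK15 minus control at 8 pm and for that difference minus the mean of the other 5. An exact permutation test of 3 libraries against 3 cannot go below p = 0.1 and was not used. The code was tested on simulated data with known changes.

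The members and the 25 function and 14 marker lists were chosen with earlier results of these data known; lists are described by counts and medians. Mitochondrial genome RNA, 1 of the marker lists, is not analysed here, and entries with symbols turned into dates (27) or listed more than once (2) are not named. Genes named are Klf15, the 12 lowest and 12 highest called fold changes, up to 4 called members of each list by smallest adjusted p, the clock genes, Nppa, Nppb and the extremes of the comparison with the other times. Other genes were named after their values were seen: called list members beyond 4, uncalled members set beside called ones, and those said to be so. Results of 2 further genes are not reported here.

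Same-numbered libraries of the 2 genotypes deviated together in all 12 pairs (r from 0.157 to 0.508), which by a rule set on these correlations alone makes the number a possible shared origin, although the labels do not say so. Differently numbered pairs reached 0.54: at the other 5 times cK15 replicate 1 and control replicate 2, the libraries that stood apart there, correlated at 0.441 to 0.54, and at 8 pm cK15 replicate 1 correlated with control replicates 2 and 3 at 0.247 and 0.163, above the 0.157 of the 2 replicates 3. The libraries that stood apart are numbered 4 at 8 pm and 1 and 2 at the other times, so whether a number means the same at each time is unknown, and the block is uncertain. Fits with the number as a block are given beside the calls they change. Positions are from GENCODE M21 (GRCm38) and promoters from RefSeq (GRCm38.p6).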

Additional observations from a re-analysis of the deposited data

Results flagged for a closer look

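Rn45s was the 1 gene whose genotype difference at 8 pm departed from the mean of the other 5 times (limma adjusted p = 0.00032; 0.131 when the 12 libraries that stood apart were left out). It was at 1004, 229.8 and 1044 FPKM in the cK15 libraries of 8 pm and listed at 0 in the 3 control libraries of 8 pm. In all 30 libraries of the other times it was above 0. Rn45s is the ribosomal RNA precursor, which the library protocol depletes, and no fold is given against values of 0.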

How the results depend on the processing

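Of 120 calls at 8 pm, a term for the library set gave 275 (89 higher, 186 lower), the 6 libraries alone 48 (3 higher, 45 lower), the 24 others 87 (14 higher), and leaving out 1 library 74 to 108 (8 to 16 higher, 63 to 92 lower). The share of higher calls, 20.8%, was 32.4%, 6.25% and 16.1% in the first 3 and 10.4% to 17.1% without single libraries. The replicate block gave 145 calls (35 higher); 7 of the 120 lost their call, Nppb and Rab4a the only ones among the genes named by rule. The departure from the other times gave 3 genes without a filter on low values and 0 in the 24 others (limma; 434 at unadjusted p under 0.05); leaving out 1 library of 8 pm gave 1 gene each time. The cause of these shifts was not tested. No named gene reversed, and 24 of 44 named calls held wherever the gene was tested among 18 alternatives, which were other pseudocounts, filters, scalings, variance moderation and library sets. Median-ratio and quantile rescaling gave 120 and 135 calls, of which 106 and 109 were shared with the main fit. They moved the median of all genes to at most 0.0187 log2. The counts of list members and the refits by list were added after seeing the data. Absolute depth is unknown and 3 libraries per group limit what can be resolved, above all for genes near 1 FPKM.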

Other observations

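Further lower genes at 8 pm outside the lists, chosen after their values were seen, act in the breakdown of other amino acids. Gcdh, which oxidises glutaryl-CoA from lysine and tryptophan, was at 30.1, 31.4 and 26.2 FPKM in cK15, against 56.1, 52.0 and 54.3 in control (log2 fold change -0.87, SE 0.11; limma adjusted p = 8.12e-06). Aldh7a1, an aldehyde dehydrogenase of lysine breakdown, averaged 22.5 ± 1.78 FPKM in cK15, against 31.3 ± 3.79 in control (SD, n = 3 each; limma adjusted p = 0.0103), a call lost without cK15 replicate 1 or control replicate 2 (up to 0.404). Gcat, of threonine and glycine metabolism, averaged 4.80 ± 0.984 FPKM in cK15, against 12.3 ± 1.23 in control (SD, n = 3 each; limma adjusted p = 5.33e-05). Gnmt, glycine N-methyltransferase, was at 0, 0 and 0.241 FPKM in cK15, against 2.28, 2.38 and 2.04 in control (limma adjusted p = 0.000494). Acy1, which frees amino acids from their acetylated forms, was at 6.06, 9.43 and 8.53 FPKM in cK15, against 21.8, 20.5 and 17.98 in control (-1.24, SE 0.16; limma adjusted p = 8.12e-06). In these 5 genes the libraries did not overlap, which held for 94 of the 95 lower genes. Gcdh, Gcat and Acy1 kept the call in all 18 alternatives, and Gnmt in those in which it was high enough to be tested.

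Selenbp1, which oxidises methanethiol, a product of methionine breakdown, was at 52.0, 63.0 and 58.1 FPKM in cK15, against 181.4, 156.8 and 152.2 in control (-1.49, SE 0.12; limma adjusted p = 4.23e-10). Pcx, pyruvate carboxylase, averaged 3.63 ± 0.559 FPKM in cK15, against 7.24 ± 0.972 in control (SD, n = 3 each; limma adjusted p = 0.0269), but lost its call in the fit of the 24 remaining libraries and without any single library but control replicate 3 (up to 0.191).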
